A study of Rattus norvegicus with 372 samples.

Results

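Acyl-CoA thioesterases (the Acot genes) were followed in primary rat hepatocytes across a panel of chemicals. Members were taken by gene symbol, and 10 of the 20946 genes of the whole-transcriptome (WT) TempO-Seq assay met the rule: Acot1, Acot2, Acot3, Acot4, Acot5, Acot7, Acot8, Acot9, Acot12 and Acot13. Hepatocytes of male Wistar rats were kept between collagen layers and received 14 chemicals at 2 concentrations each, 28 treatments in all, for 24 h in medium with 0.5% DMSO. Concentrations in µM were 400 and 10000 for acetaminophen, caffeine, isoniazid and valproic acid, 18 and 450 for chloramphenicol, and 16 and 400 for diclofenac. They were 0.08 and 2 for doxorubicin, 12 and 300 for indomethacin, 0.6 and 15 for ketoconazole, and 80 and 2000 for naproxen. They were 160 and 4000 for ranitidine, 2.4 and 60 for simvastatin, 4 and 100 for sulfasalazine, and 8 and 200 for WY14643. Vehicle wells held the same DMSO and other wells held culture medium alone. Each batch used the cells of 1 rat, with 3 wells per treatment, so wells of a batch share one animal and a spread over animals rests on 2 rats. The authors also made and sequenced the libraries of each batch separately, so rat, library and sequencing run cannot be told apart between batches. Controls in batch 1 were 3 wells of vehicle and 3 of medium alone, all on one plate, and in batch 2 they were 6 of each over 2 plates. In batch 1 the plate with WY14643, acetaminophen, chloramphenicol, indomethacin, ketoconazole and sulfasalazine held no vehicle well, so for these chemicals plate and treatment cannot be told apart in that batch.

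Acyl-CoA thioesterases split acyl-CoA into a free fatty acid and coenzyme A, and so set the balance between activated and free fatty acids in each compartment of the cell. Acot1, Acot7 and Acot12 are cytosolic, Acot2, Acot9 and Acot13 mitochondrial, and Acot3, Acot4, Acot5 and Acot8 peroxisomal. Acot1 to Acot5 share the alpha/beta hydrolase fold (type I), whereas Acot7 to Acot13 have the hotdog fold (type II). Several type I genes are long known as targets of PPARalpha, the fatty acid receptor that WY14643 activates and that drives fatty acid oxidation in rodent liver.

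In the RefSeq annotation of the rat assembly GRCr8, the 5 type I members neighbour each other on chromosome 6 in the order Acot2, Acot1, Acot4, Acot3 and Acot5. Rpl23al8 lies between Acot1 and Acot4, and Acot6 lies beyond Acot5. The 5 type II members lie on chromosomes 2, 3, 5, 17 and X. Because the type I genes are close copies, reads of one could be counted under another, and the probe sequences were not analysed here.

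RefSeq promoters were found for all 10 members (11 windows, since Acot7 has 2), and the 250 bases before each start were searched on both strands for the core motif AGGTCA of nuclear receptors and for its direct repeat with a single free base between (DR1), the form PPARalpha binds. The direct repeat, with the fourth base of each core motif left free, was in none of the 11 windows and in 0.368% of 33469 promoters of the same length. Only full matches were counted, so an imperfect repeat reads as absent. On the minus strand the end of the Acot4 window misses the repeat by 1 letter. Such near matches were not counted in other promoters. The core motif was in 4 of the 11 (Acot4, Acot5, Acot8 and Acot12), against 14.1% of all promoters. The windows of Acot1, which went from at most 1 count in a vehicle well to 684 CPM or more at 200 µM WY14643, and of Acot4 and Acot12, a peroxisomal and a cytosolic member with a core motif, are shown 5′ to 3′ with the core motif in capitals. All are from GRCr8, plus strand, at chr6:109367024-109367273, chr6:109399604-109399853 and chr2:24721709-24721958.
Acot1: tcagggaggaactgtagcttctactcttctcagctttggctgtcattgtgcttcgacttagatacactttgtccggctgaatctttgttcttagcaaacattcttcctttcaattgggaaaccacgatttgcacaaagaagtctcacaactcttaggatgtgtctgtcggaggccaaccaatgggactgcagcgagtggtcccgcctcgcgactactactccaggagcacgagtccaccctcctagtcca
Acot4: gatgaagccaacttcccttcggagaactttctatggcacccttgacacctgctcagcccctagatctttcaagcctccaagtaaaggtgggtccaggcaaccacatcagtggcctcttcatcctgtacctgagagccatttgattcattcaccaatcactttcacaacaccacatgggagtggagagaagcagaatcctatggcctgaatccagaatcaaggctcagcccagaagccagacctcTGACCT
Acot12: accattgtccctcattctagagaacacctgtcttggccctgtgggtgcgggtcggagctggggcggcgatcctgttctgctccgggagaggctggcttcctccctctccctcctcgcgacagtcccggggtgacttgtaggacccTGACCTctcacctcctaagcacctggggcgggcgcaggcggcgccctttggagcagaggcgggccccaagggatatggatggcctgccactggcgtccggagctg
In Acot4 and Acot12 the core motif reads on the minus strand. A match describes these letters only and is not a site of binding.

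The WT wells had between 2289425 and 8975207 reads. In the 9 vehicle wells the hepatocyte markers were high (Alb 10818 to 14790 CPM, each count scaled to 1e6 reads of its well), as were Apoa1 and Tf. The 6 Kupffer cell and leukocyte markers summed to 25.8 to 45.9 CPM, the 4 endothelial markers to 1.38 to 3.37 CPM, the 4 biliary markers to 33.1 to 49.0 CPM, mostly Epcam, with Krt7 at 0 in each well, and the 5 stellate cell markers to 20.2 to 127.6 CPM, mostly Col3a1.

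At a mean of at least 10 counts per well over all WT wells, 7 of the 10 members could be tested: Acot1, Acot2, Acot3, Acot4, Acot7, Acot12 and Acot13. Acot1 passed only through treated wells, so that it had to differ. Counts of calls below include Acot1, and only the other tested members bear on the comparison with all genes. Acot5, Acot8 and Acot9 had means of 4.19, 8.27 and 4.62 counts. L2FC is the log2 fold change against vehicle of both batches with batch as a term (edgeR quasi-likelihood test), and a member was called at a Benjamini-Hochberg adjusted p under 0.05 over all 10191 genes tested. Within a batch the spread is between wells of one rat, and the rat as replicate is taken up at the end.

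**Figure D1:**
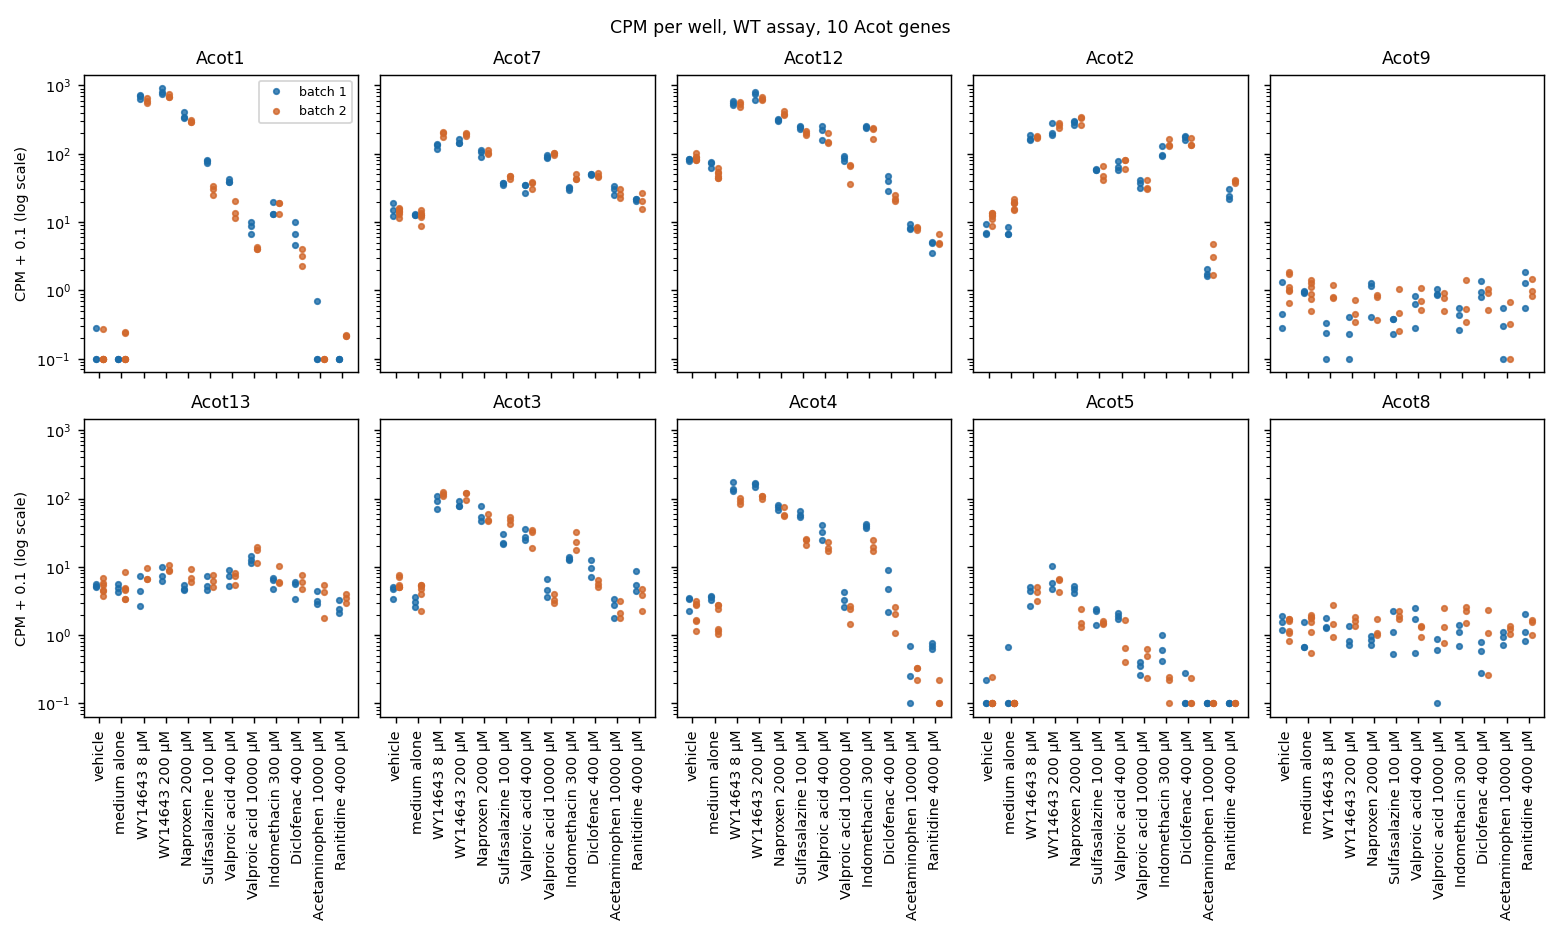
CPM of each WT well (points, y axis CPM + 0.1 on a log scale) for the 10 Acot genes in vehicle, medium alone and 10 treatments (x axis), batch 1 in blue and batch 2 in orange. Acot1 lies at or near 0 in vehicle and above 500 CPM in every WY14643 well, whereas Acot8 and Acot9 stay below 3 CPM.

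WY14643, a PPARalpha agonist, raised each of the 7 tested members at both concentrations. Acot1, which hydrolyses long-chain acyl-CoA in the cytosol, had 1 count over the 3 vehicle wells of batch 1 and 1 over the 6 of batch 2. At 200 µM its wells held 755, 794 and 915 CPM in batch 1 and 684, 686 and 747 CPM in batch 2. The count ratio to vehicle was 15802 in batch 1 (95% exact counting interval 2836 to 624190) and 28191 in batch 2 (5059 to 1113500). These intervals cover counting error only, and they are wide because a single vehicle count stands below them. At 8 µM Acot1 was nearly as high, with 633, 706 and 720 CPM in batch 1 and 545, 590 and 658 CPM in batch 2.

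Acot2, the mitochondrial long-chain thioesterase, had 6.53, 6.79 and 9.28 CPM in vehicle of batch 1 and 8.61 to 13.5 CPM (median 12.4) in batch 2. With 200 µM WY14643 it had 190, 204 and 281 CPM in batch 1 and 237, 261 and 277 CPM in batch 2, an L2FC of 4.87 ± 0.17 (SE, adjusted p = 6.6e-63). No treated well overlapped a vehicle well. The peroxisomal Acot4, which acts on succinyl-CoA and other dicarboxylic acyl-CoA, rose from 2.18, 3.28 and 3.39 CPM to 147, 163 and 171 CPM in batch 1, and from 1.03 to 3.06 CPM (median 2.11) to 96.7, 107 and 109 CPM in batch 2 (L2FC 5.91 ± 0.19, adjusted p = 5e-67). The other peroxisomal member tested, Acot3, rose by an L2FC of 4.45 ± 0.17.

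The L2FCs of the type II members lay below those of type I, with Acot13 lowest, and this order was not tested. Acot12, which hydrolyses acetyl-CoA in the cytosol, had 77.6, 82.4 and 84.3 CPM in vehicle of batch 1 and 80.2 to 101 CPM (median 85.9) in batch 2. It reached 612, 761 and 793 CPM and 608, 626 and 674 CPM at 200 µM, an L2FC of 3.21 ± 0.13. Acot7, known for its high level in brain, rose by 3.81 ± 0.11. Acot13, a small hotdog protein of mitochondria, went from 4.92, 5.18 and 5.44 CPM to 6.18, 7.16 and 9.69 CPM in batch 1, an L2FC over both batches of 1.04 ± 0.17 (adjusted p = 5.2e-08). At 8 µM its L2FC was 0.59 ± 0.18 (adjusted p = 0.0033), and the wells of batch 1 (2.55, 4.25 and 7.15 CPM) overlapped vehicle. Of all genes tested, 26.0% were called higher at 200 µM, and 2851 of 10191 at 8 µM. At 200 µM the hepatocyte markers summed to 30744 to 36006 CPM, below each vehicle well, but in the fit 2 of the 7 were higher and 2 lower (median L2FC -0.13). There 1 Kupffer cell and leukocyte marker was higher and 1 biliary marker each way, and their part in the result was not tested. Scaling by total counts alone, as in CPM, moved the median L2FC of all genes to -0.24 at this treatment. Between the concentrations no member was called (edgeR, adjusted p between 0.11 and 0.88, 3 members at an unadjusted p under 0.05, and 0 called by DESeq2), where 2.52% of all genes were higher and 3.22% lower at 200 µM.

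Acot7 was read by 2 probes, and both rose. In batch 2 one went from 10.6 to 15.4 CPM in vehicle to 155.6 to 158.3 CPM at 200 µM WY14643, the other from 0.864 to 2.35 CPM to 28.8 to 44.9 CPM.

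**Figure D2:**
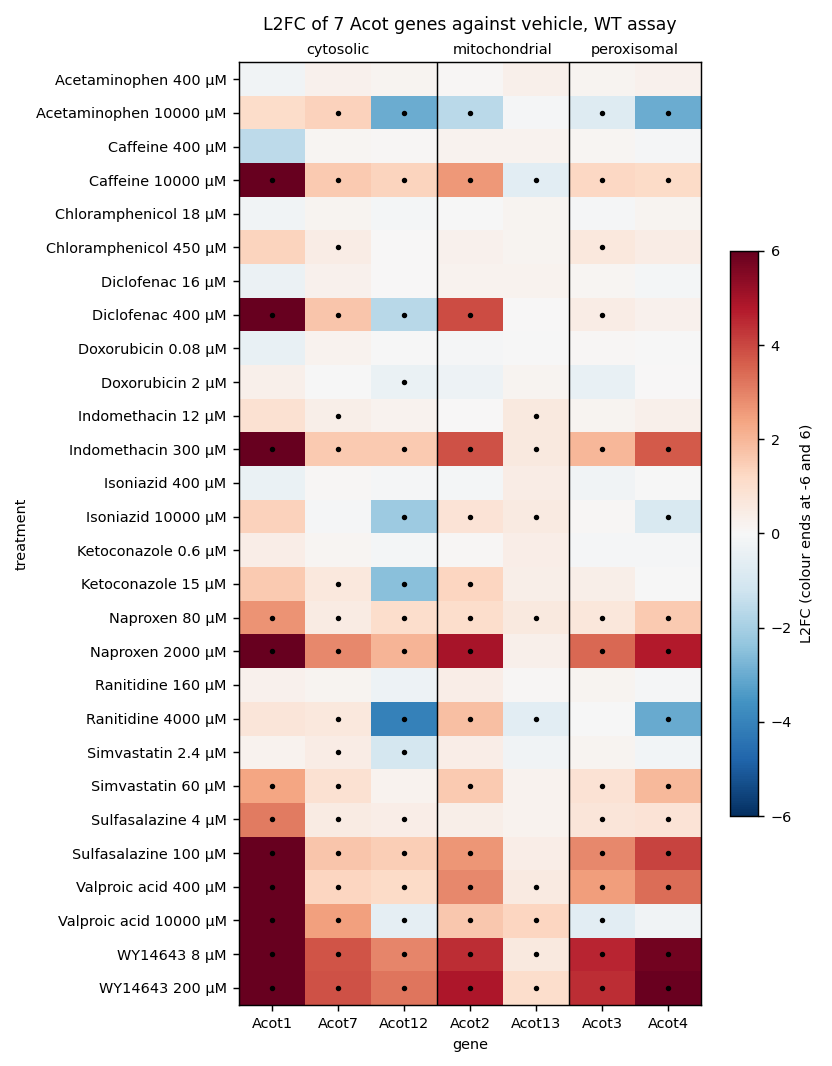
L2FC of the 7 tested Acot genes (columns, by compartment) with 28 treatments (rows) against vehicle in the WT assay, colour ending at -6 and 6 and black dots marking an adjusted p under 0.05. Both WY14643 rows, 80 µM naproxen, 400 µM valproic acid and 300 µM indomethacin have 7 dots; values of Acot1 depend on the fit's prior count.

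Naproxen at 2000 µM, sulfasalazine at 100 µM, valproic acid at 400 µM and indomethacin at 300 µM raised most members as well. Acot1 had 332, 340 and 411 CPM in batch 1 and 293, 293 and 308 CPM in batch 2 with naproxen. It had 74.2, 77.8 and 81.8 CPM against 24.5, 30.5 and 33.6 CPM with sulfasalazine, and 38.1, 38.8 and 43.1 CPM against 11.2, 13.3 and 20.1 CPM with valproic acid. Each of these wells lay above each vehicle well of Acot1, and with sulfasalazine and valproic acid batch 1 lay above batch 2.

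For naproxen, a nonsteroidal anti-inflammatory drug, 6 of the 7, Acot1 included, were called higher (27.6% of all genes). The exception was Acot13 with an L2FC of 0.31 ± 0.18. Acot2 reached 268, 292 and 301 CPM in batch 1 and 265, 338 and 347 CPM in batch 2, an L2FC of 4.96 ± 0.17, and Acot4 rose by 4.77 ± 0.19. The hepatocyte markers summed to 19976 to 21099 CPM with naproxen, against 37172 to 45053 CPM in vehicle, and 6 of 7 were lower in the fit. Of the 4 tested Kupffer cell and leukocyte markers 2 were lower (median L2FC -0.90), as was the stellate cell marker Col3a1 (-0.74), and of 2 biliary markers 1 was higher and 1 lower. The part of these markers in the result was not tested. For sulfasalazine 6 of 7 were called higher (21.3% of all genes), led after Acot1 by Acot4 (4.06 ± 0.19), Acot3 (2.90 ± 0.17) and Acot2 (2.65 ± 0.17). The rise of Acot2 with sulfasalazine was larger in batch 1 (3.16) than in batch 2 (2.18), and the interaction passed the test. In the fit 2 of 7 hepatocyte markers were higher with sulfasalazine, and their part in the result was not tested.

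With 400 µM valproic acid, an antiepileptic branched-chain fatty acid, all 7 tested members, Acot1 included, were called higher (15.1% of all genes). Acot4 rose by 3.35 ± 0.20, Acot2 by 2.88 ± 0.17, Acot3 by 2.52 ± 0.17, Acot7 by 1.27 ± 0.11, Acot12 by 1.14 ± 0.12 and Acot13 by 0.56 ± 0.18. The hepatocyte markers summed to 38563 to 49885 CPM, within or above the range of vehicle, and 2 of 7 were higher in the fit. Col3a1 was higher (0.48), and 1 Kupffer cell and leukocyte marker and 1 biliary marker were lower. The part of these markers in the result was not tested. Indomethacin at 300 µM likewise had 7 of 7, Acot1 included, called higher (27.1%), with Acot2 at 3.80 ± 0.17 and Acot4 at 3.66 ± 0.19. The hepatocyte markers summed to 24016 to 29694 CPM there, with 1 of 7 higher and 3 lower in the fit. Of the 4 tested Kupffer cell and leukocyte markers 3 were lower (median L2FC -1.23), as were Col3a1 (-1.12) and 1 of 2 biliary markers, and their part in the result was not tested.

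At 10000 µM, valproic acid gave another pattern, with 4 members called higher (33.5% of all genes) and 2 lower (33.2%). Acot7 had 86.3, 89.9 and 97.2 CPM in batch 1 and 97.4, 103 and 103 CPM in batch 2, against 12.3 to 18.9 CPM in vehicle of batch 1 and 11.5 to 16.2 CPM in batch 2 (L2FC 2.48 ± 0.10). Acot13 reached 11.2, 12.6 and 14.1 CPM in batch 1 and 11.4, 17.6 and 19.4 CPM in batch 2 (1.28 ± 0.17), the largest L2FC of Acot13 over the 28 treatments. Both were thus above vehicle without overlap.

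Set directly against 400 µM, Acot7 was higher at 10000 µM by an L2FC of 1.20 ± 0.11 and Acot13 by 0.72 ± 0.18, while 5 members were lower. Acot4 fell by 3.54 (SE 0.22), Acot3 by 3.13 (0.21), Acot1 by 2.40 (0.20), Acot12 by 1.70 (0.14) and Acot2 by 1.27 (0.17). Among all genes, 32.8% were higher and 32.5% lower in that contrast. Against vehicle, the L2FC of Acot3 was -0.61 ± 0.21 and that of Acot12 -0.56 ± 0.13, but both came from batch 2 (-1.09 and -0.91) and not from batch 1 (-0.00 and -0.11). All 7 hepatocyte markers were lower at 10000 µM and summed to 15915 to 22503 CPM. Of the 4 tested Kupffer cell and leukocyte markers 3 were lower and 1 higher (median L2FC -3.69), the 1 tested stellate cell marker, Col3a1, was lower (-2.53), and of 2 tested biliary markers 1 was higher. The part of these markers in the result was not tested.

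**Figure D3:**
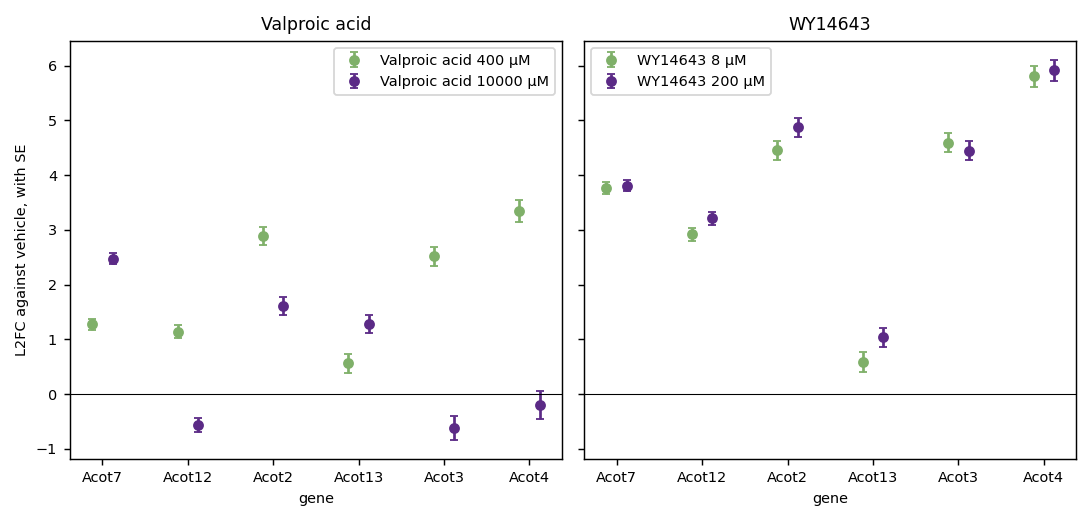
L2FC against vehicle (points, bars are SE) of 6 Acot genes at the low and high concentration of valproic acid and of WY14643, both batches. With valproic acid, Acot7 and Acot13 are higher at 10000 µM and the other 4 lower, whereas the points of WY14643 lie close together.

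With 400 µM diclofenac, another nonsteroidal anti-inflammatory drug, the L2FC of Acot2 was above those of the tested peroxisomal members, a difference that was not tested. Acot2 had 160, 175 and 183 CPM in batch 1 and 133, 136 and 167 CPM in batch 2, an L2FC of 3.92 ± 0.17. In the same wells Acot1 held 4.54 to 10.0 CPM in batch 1 and 2.20 to 3.88 CPM in batch 2, against 0 to 0.182 CPM in vehicle wells of both batches. Acot4 was not called (0.27 ± 0.24). Its count ratio to vehicle was 1.88 (95% exact counting interval 1.34 to 2.67) in batch 1 and 0.862 (0.572 to 1.28) in batch 2. Acot3, called at 0.44 ± 0.20, was at 1.11 in batch 1 and -0.18 in batch 2.

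Acot12 fell with diclofenac, from 77.6 to 84.3 CPM to 28.4, 40.2 and 47.3 CPM in batch 1 and from 80.2 to 101 CPM to 20.4, 21.8 and 24.6 CPM in batch 2 (L2FC -1.66 ± 0.14). In all, 4 members were called higher (36.0% of all genes) and 1 lower (35.8%). All 7 hepatocyte markers were lower with diclofenac and summed to 7037 to 9417 CPM. Both tested biliary markers (median L2FC -2.43), 3 of 4 Kupffer cell and leukocyte markers (-1.17) and Col3a1 (-0.56) were lower too, 1 Kupffer cell and leukocyte marker was higher, and the part of these markers in the fall of Acot12 was not tested. Caffeine at 10000 µM raised 6 members (34.6%), Acot2 by 2.60 ± 0.17 and Acot12 by 1.35 ± 0.12, and lowered Acot13, with an L2FC of -0.63 ± 0.20 (31.6% of all genes lower). With caffeine the hepatocyte markers summed to 18545 to 25114 CPM, with 2 of 7 higher and 3 lower in the fit (median L2FC -0.19). There 3 of 4 Kupffer cell and leukocyte markers were lower (median L2FC -2.71), as was Col3a1 (-2.02), and their part in the result was not tested.

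Acot12 had its lowest L2FC of the 28 treatments with ranitidine, an H2 receptor blocker. At 4000 µM Acot12 had 3.37, 4.85 and 5.09 CPM in batch 1 and 4.68, 4.81 and 6.70 CPM in batch 2, an L2FC of -4.03 ± 0.17 (adjusted p = 1.8e-53). Acot4 fell to 0.533, 0.599 and 0.669 CPM in batch 1 and to 1 count over 3 wells in batch 2. Its count ratio to vehicle was 0.212 (95% exact counting interval 0.0999 to 0.409) in batch 1 and 0.0180 (0.000452 to 0.103) in batch 2. Acot2 rose in the same wells, to 21.6, 24.1 and 30.4 CPM and 37.4, 40.0 and 41.3 CPM (L2FC 1.78 ± 0.17). Ranitidine thus had 2 members higher (32.3% of all genes) and 3 lower (33.9%).

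Acetaminophen at 10000 µM lowered 4 members (40.1% of all genes) and raised 1 (38.8%). Acot12 had 7.85, 7.99 and 9.34 CPM in batch 1 and 7.66, 8.17 and 8.36 CPM in batch 2 (L2FC -2.98 ± 0.16). Acot2 fell to 1.54, 1.61 and 1.92 CPM and 1.58, 2.98 and 4.62 CPM (-1.62 ± 0.23), the only treatment of the 28 at which Acot2 was called lower. Acot4 was left with 4 and 5 counts over the 3 wells of each batch, a count ratio of 0.0932 (0.0245 to 0.252) and 0.0903 (0.0286 to 0.219). Acot7 rose, to 24.9, 30.4 and 33.2 CPM and 22.1, 25.9 and 30.3 CPM (1.36 ± 0.11). Scaling by total counts alone moved the median L2FC of all genes to -0.43 at this treatment.

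Ketoconazole at 15 µM and isoniazid at 10000 µM also lowered Acot12 while Acot2 rose. With ketoconazole Acot12 had 17.6, 18.1 and 20.3 CPM in batch 1 and 9.72, 10.7 and 13.8 CPM in batch 2 (L2FC -2.49 ± 0.15), and Acot2 rose by 1.27 ± 0.17. With isoniazid the L2FC was -2.16 ± 0.14 for Acot12 and 0.80 ± 0.18 for Acot2. Ketoconazole had 2 members higher (25.0% of all genes) and 1 lower (26.3%), isoniazid 2 higher (17.4%) and 2 lower (17.3%). The hepatocyte markers summed to 12075 to 17855 CPM with ranitidine, 22984 to 35956 CPM with acetaminophen, 19564 to 23433 CPM with ketoconazole and 25393 to 30711 CPM with isoniazid, below each vehicle well in all 4. In the fit 7 of 7 were lower with ranitidine, 6 with ketoconazole and isoniazid and 3 with acetaminophen (median L2FC -0.24), where total counts alone moved all genes as given above. Of the 4 tested Kupffer cell and leukocyte markers, 3 were lower with ranitidine (median L2FC -2.58), acetaminophen (-1.31) and ketoconazole (-0.80) and 1 with isoniazid (-0.11), and 1 was higher with each of the 4. Of the 2 biliary markers 1 was higher with ranitidine, ketoconazole and isoniazid and 1 lower with ranitidine. Col3a1 was lower with ranitidine (-1.55), acetaminophen (-1.47) and isoniazid (-0.74). The part of these markers in the fall of Acot12 was not tested.

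**Figure D4:**
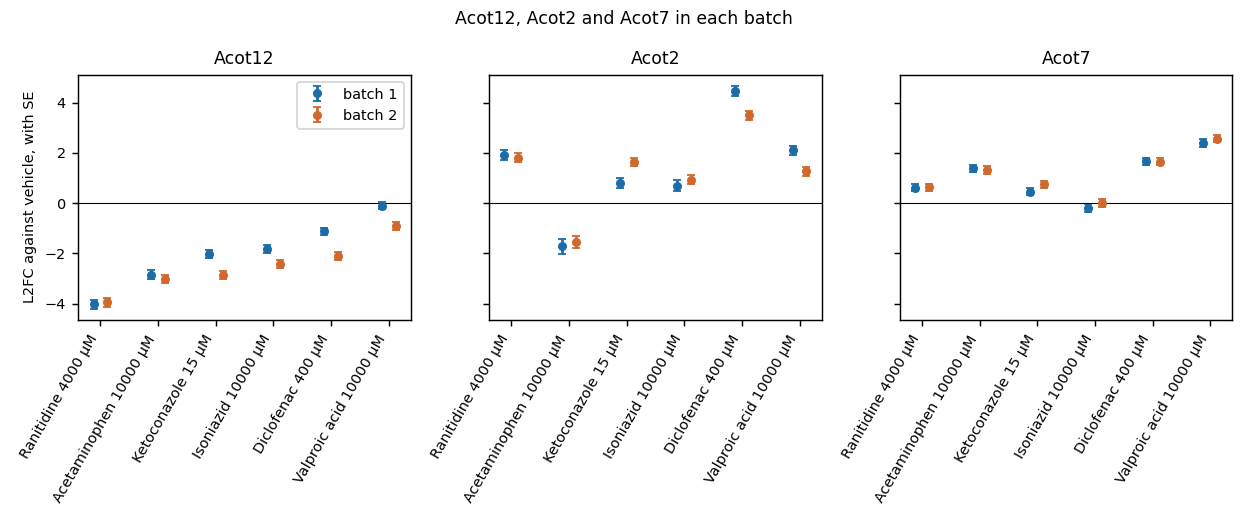
L2FC against vehicle (points, bars are SE) of Acot12, Acot2 and Acot7 with 6 treatments at the high concentration (x axis), fitted in batch 1 (blue) and batch 2 (orange) alone. Acot12 is below 0 in each, Acot2 above 0 in all but acetaminophen, and Acot7 above 0 in all but isoniazid (-0.19 and -0.01).

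Over the 14 high concentrations, Acot7 was called higher at 12, Acot2 at 11, Acot1 and Acot3 at 8, Acot4 at 6, Acot12 at 5 and Acot13 at 4. Acot12 was called lower at 7, Acot4 at 3, Acot3 and Acot13 at 2, Acot2 at 1 and neither Acot1 nor Acot7 at any. Of all genes, 25.4% were called higher and 25.5% lower over these treatments. Acot1 could hardly be called lower, with vehicle at 0 or 1 count per well. Over the 14 low concentrations 29 calls were higher and 1 lower, against 4.90% and 4.50% of all genes.

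At low concentration, apart from WY14643 and valproic acid, 80 µM naproxen had 7 of 7 called higher (8.64% of all genes) and 4 µM sulfasalazine 5 of 7 (9.35%). With the wells of each rat added, Acot4 and Acot12 stayed called with naproxen and none of the 5 with sulfasalazine (edgeR, adjusted p between 0.17 and 0.37). With 80 µM naproxen Acot12 had 185, 192 and 195 CPM in batch 1 and 133, 148 and 157 CPM in batch 2 (1.07 ± 0.12), and Acot4 rose by 1.57 ± 0.22. The call of Acot1 there rests on batch 1, with 13 counts over 3 wells against 1 count in batch 2. With 80 µM naproxen 2 of 7 hepatocyte markers and 1 of 4 Kupffer cell and leukocyte markers were higher. With 4 µM sulfasalazine 1 of 7 hepatocyte markers was higher and 1 of 2 biliary markers lower (median L2FC -0.53). The part of these markers in the result was not tested. Simvastatin, an inhibitor of cholesterol synthesis, raised 5 members at 60 µM (11.4%), Acot4 by 1.96 ± 0.21 and Acot2 by 1.55 ± 0.17, with 4 of 7 hepatocyte markers higher and 1 lower (median L2FC 0.48), Col3a1 higher (0.56) and 1 biliary marker each way, whose part was not tested. At 2.4 µM simvastatin raised Acot7 (0.43 ± 0.11) and lowered Acot12, to 33.8, 46.1 and 48.8 CPM in batch 1 and 39.2, 41.0 and 49.2 CPM in batch 2 (L2FC -1.03 ± 0.13). At 2.4 µM 115 of 10191 genes were called higher and 130 lower, among them 2 of 7 hepatocyte markers and 2 of 4 Kupffer cell and leukocyte markers (median L2FC -0.68) on the lower side, and their part in the result was not tested. Indomethacin at 12 µM had Acot13 (0.59 ± 0.18) and Acot7 (0.37 ± 0.11) called higher, beside 360 of 10191 genes. There 1 of 7 hepatocyte markers was higher, and its part was not tested.

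By compartment, at high concentration the 3 cytosolic members had 25 calls higher and 7 lower of 42 pairs of member and treatment, the 2 tested mitochondrial members 15 and 3 of 28, and the 2 tested peroxisomal members 14 and 5 of 28, beside the 25.4% and 25.5% of all genes. At low concentration the counts were 14 and 1, 7 and 0, and 8 and 0, beside 4.90% and 4.50%. Over both levels, 12 of the 39 higher calls of cytosolic members were of Acot1, which the filter let in through treated wells and which could hardly be called lower, 18 were of Acot7 and 9 of Acot12, and all 8 lower calls were of Acot12. The cytosolic count is therefore in part fixed by the filter. At high concentration the median L2FC was 0.57 for mitochondrial and 0.45 for peroxisomal pairs. None is given for cytosolic pairs, since the fitted values of Acot1 depend on the prior count. Among cytosolic members, Acot7 was called higher at 5 high concentrations where Acot12 was called lower (valproic acid, diclofenac, ranitidine, acetaminophen and ketoconazole). Among mitochondrial members, Acot2 was called higher at 11 high concentrations and Acot13 at 4. The difference between members was not tested. No test between compartments was made.

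The 3 members below the filter had few reads in vehicle. Acot5, a peroxisomal type I enzyme, had 1 count in vehicle of each batch and 143 and 141 counts at 200 µM WY14643, a count ratio of 129.9 (22.9 to 5165) and 229.0 (40.4 to 9109). With 2000 µM naproxen it had 91 and 34 counts. Acot8, a broad peroxisomal thioesterase, had 1.09 to 1.79 CPM in vehicle of batch 1 and 0.618, 0.712 and 1.28 CPM at 200 µM WY14643, which overlap. In batch 2 the ranges of Acot8 were 0.733 to 1.63 CPM in vehicle and 1.24 to 1.77 CPM at 200 µM WY14643, which overlap as well. Acot9, of mitochondria, had 0.182, 0.357 and 1.21 CPM in vehicle of batch 1 and 0, 0.128 and 0.309 CPM at 200 µM WY14643. In batch 2 it had 0.556 to 1.76 CPM in vehicle and 0.248, 0.346 and 0.633 CPM at 200 µM WY14643. Without the filter Acot9 was called lower at 200 µM WY14643, at an L2FC of -1.47 ± 0.46, from 3 and 10 counts over the treated wells of batch 1 and batch 2. The ST assay, a smaller gene set run on the same lysates, had Acot9 means of 5.55 CPM in vehicle and 1.48 CPM with 200 µM WY14643 in batch 1. In batch 2 the ST means were 5.63 and 1.18 CPM, and in both batches wells overlapped.

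In culture medium alone 2 members were called against vehicle, 1 higher (7.51% of all genes) and 1 lower (5.10%), and neither was called with the wells of each rat added (edgeR, adjusted p = 0.67 for Acot2 and 0.58 for Acot12). Acot12 was lower in medium alone by an L2FC of -0.51 ± 0.11, from batch 2 (43.7 to 62.2 CPM against 80.2 to 101 CPM) rather than batch 1 (62.0, 72.1 and 75.5 CPM against 77.6, 82.4 and 84.3 CPM, L2FC -0.10, not called). Acot2 was higher by 0.52 ± 0.16, also from batch 2 (0.70, against 0.06 in batch 1). In medium alone 1 of 7 hepatocyte markers was lower and 1 of 4 Kupffer cell and leukocyte markers higher. The part of these markers in the result was not tested.

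Other steps of acyl-CoA metabolism were counted from lists of textbook genes. At 200 µM WY14643, 13 of 13 tested genes of mitochondrial beta oxidation were called higher (median L2FC 3.60), 11 of 11 of peroxisomal beta oxidation (3.86), 8 of 10 of coenzyme A synthesis and breakdown (2.33) and 10 of 10 other PPARalpha targets (3.43), against a median of -0.01 over all genes, 26.0% of which were higher and 2583 of 10191 lower. Cpt1b, the muscle form of the carnitine transferase, rose by 7.35 ± 0.20, and Ehhadh, the peroxisomal bifunctional enzyme, by 10.26 ± 0.28. Pank1, which starts coenzyme A synthesis, rose by 4.23 ± 0.14, and Vnn1, which breaks down pantetheine, by 4.60 ± 0.15. Of 12 acyl-CoA synthetases, which work against the thioesterases, 6 were higher and 1 lower, led by Acsl1 (5.62 ± 0.18) and Slc27a2 (3.62 ± 0.14). Of 3 other tested thioesterases, Them6 (0.77 ± 0.18) and Ppt2 (0.29 ± 0.09) were higher.

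The same lists are given in the order mitochondrial beta oxidation, peroxisomal beta oxidation, coenzyme A synthesis and breakdown, and other PPARalpha targets. With 400 µM valproic acid 13 of 13, 10 of 11, 7 of 10 and 10 of 10 were called higher (15.1% of all genes) and none lower. With 10000 µM valproic acid 10, 8, 2 and 7 were higher (33.5%) and 2, 2, 1 and 3 lower (33.2%). With acetaminophen 2, 4, 4 and 1 were higher (38.8%) and 10, 4, 3 and 7 lower (40.1%), so that the lists of peroxisomal beta oxidation and of coenzyme A had about as many calls in either direction. With ranitidine 2, 2, 3 and 1 were higher (32.3%) and 11, 8, 6 and 8 lower (33.9%).

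Genes whose mean log2(CPM + 1) over the 30 conditions was most like a member were named by the lower Pearson r of the 2 batches. The 30 conditions share their wells' depth and the chemicals, and r describes these data only. For Acot1 they included Gk (r = 0.95 and 0.97 in batch 1 and batch 2) and Crat (0.96 and 0.95). For Acot2 they were Chkb (0.94 and 0.93), Hadhb (0.94 and 0.91) and Pgrmc2 (0.90 and 0.91). Acot3 was most like Acot4 (0.94 and 0.97), its neighbour, and Acot4 most like Acaa2 (0.97 and 0.97). For Acot7 they were Hsdl2 (0.93 and 0.93), Hilpda (0.94 and 0.93) and Tor3a (0.92 and 0.93).

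The genes most like Acot12 included Slc27a2 (0.97 and 0.96) and Fbp1, an enzyme of glucose synthesis (0.95 and 0.94). For Acot13 no gene was above 0.76 in both batches (Emc1 led with 0.76 and 0.79). Between members, r was lowest for pairs with Acot13, such as 0.17 and 0.21 with Acot3.

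Of the 99 pairs of member and treatment called in both batches together, 98 had the same sign in the 2 batches fitted alone, and 71 were called the same way in each. Acot1, which the filter let in through treated wells, made up 12 of the 99. With the wells of a treatment and batch added, so that each rat gave 1 sample, 76 of the 99 stayed called. Those lost included Acot3 with 10000 µM valproic acid and 400 µM diclofenac, Acot3 with acetaminophen, and all 5 calls at 4 µM sulfasalazine. The ST assay, run on the same lysates with a smaller gene set, tested 5 members (Acot1, Acot2, Acot3, Acot4 and Acot12), and 65 of the 71 called pairs it also tested were called the same way. In it, Acot12 had an L2FC of -3.94 ± 0.18 with ranitidine and Acot2 of 4.12 ± 0.13 with diclofenac. Acot12 with 10000 µM valproic acid was at -0.23 ± 0.13 and not called. The ST reads come from the same wells and are no independent replicate.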

How the data were processed

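TempO-Seq ligates paired detector oligos on a transcript, so a read stands for a probe. The authors aligned the reads with STAR 2.5.3a to rn6 and deposited raw counts per probe and well, 1 table per assay. Counts of probes with one symbol were added. The fit used edgeR 4.0.16 in R 4.3.3 (TMM, quasi-likelihood test, condition and batch as terms, all WT wells), on 10191 genes that averaged 10 counts or more, with Benjamini-Hochberg adjustment per comparison. CPM is a count scaled to 1e6 reads of the well, with a pseudocount of 1 before logs for likeness. Wells were 2289425 to 8975207 reads deep (WT) and 558190 to 2210264 (ST), which limits members under a few CPM. Reads are not molecules, so counting intervals cover counting error only. Named genes were all 10 members, from each list the 2 called genes with the largest absolute L2FC at a leading treatment, and the 3 genes most like each member. Some of these are not reported here. Lists were of textbook genes, and 13 listed symbols were not matched in the WT table. Members and lists were chosen with earlier results of these data known. Alternatives were DESeq2 1.42.0, RLE factors, total counts only, all genes unfiltered, calls only past an absolute L2FC of 1, wells added per batch, each batch alone, vehicle of the same plate, each replicate left out and the ST assay. The fitting code was tested on simulated data.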

Additional observations from a re-analysis of the deposited data

Results flagged for a closer look

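The effect of a treatment differed between the batches, each the cells of 1 rat, for 10 of 196 pairs of member and treatment by an interaction term (edgeR, adjusted p under 0.05). The share of all genes with such a difference is not given, so whether the members stand out cannot be judged. The L2FC of batch 2 minus that of batch 1 was below 0 in each of the 10. Pairs of one member share its vehicle wells, so their signs are not independent. With 400 µM diclofenac this difference was -0.94 for Acot12, -0.96 for Acot2 and -1.26 for Acot3, and with 10000 µM valproic acid -0.81, -0.85 and -1.10 for the same members. It was -0.83 for Acot12 with ketoconazole, -0.95 for Acot2 with 100 µM sulfasalazine, -1.28 for Acot3 with ranitidine and -3.09 for Acot4 with ranitidine, the last resting on 1 count in batch 2. Rat, library and sequencing run differ together between the batches and cannot be told apart in any of the 10. For ketoconazole and sulfasalazine the treated wells of batch 1 stood on a plate without vehicle, so plate cannot be told apart from these either. Diclofenac, valproic acid and ranitidine shared a plate with vehicle in both batches.

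A single well stood far from its group in 3 of 19 groups tested, where chance flags about 1 in 20. Acot1 (0.173 CPM) and Acot5 (0.148 CPM) each had 1 vehicle well of batch 2 with 1 count and the others at 0. Any count stands out among zeros, so that rate does not apply to Acot1 and Acot5. Acot13 had 8.30 CPM in 1 well of medium alone of batch 2, the shallowest WT well with 2289425 reads.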

How the results depend on the processing

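Batch, the cells of 1 rat, pairs each treatment with its own vehicle and was a term of the reported fit. For single wells, no paired analysis was possible because the labels give wells within a batch no replicate numbers, and a replicate number here only names a well. Of the 99 called pairs of member and treatment, 99 kept call and direction with DESeq2 and with RLE factors, 94 without the filter, 93 with total counts only, 79 in batch 1 and 86 in batch 2 alone, 81 in batch 2 against vehicle of the same plate, and 70 with an absolute L2FC of at least 1. Acot3 with 400 µM diclofenac turned direction in batch 2 alone (-0.18) and against vehicle of the same plate (-0.34). Calls lower of mitochondrial members went from 3 to 8 without the filter, which adds Acot9, and to 1 in batch 2 alone, with same-plate vehicle and at an absolute L2FC of at least 1. They were also 1 in the ST assay, which holds no Acot13, the member with 2 of the 3. Those of peroxisomal members went from 5 to 2 with wells added per batch, in batch 1 alone and at an absolute L2FC of at least 1, and those of all members from 16 to 9 at the last. Calls higher of cytosolic members went from 39 to 21 in the ST assay, which holds no Acot7. In medium alone both calls fell to 0 with wells added, in batch 1 alone and at an absolute L2FC of at least 1, and the lower call to 0 in the ST assay; the cause was not tested. With each replicate left out in turn, 83 to 91 of the 99 pairs kept their call, calls lower of peroxisomal members ran from 3 to 5, and the higher call in medium alone ran from 0 (without replicate 1) to 1. Of the 21 genes most like a member by Pearson r, 4 were also among the 3 highest by Spearman rho. Depth limits Acot5, Acot8 and Acot9.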
